A study of Homo sapiens with 6 samples.

Results

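Nuclear receptors are transcription factors whose activity can be set by small lipophilic ligands. The 10 described here, NR2C1, NR2C2, NR2F2, NR2F6, RXRA, RARG, VDR, PPARD, NR1D2 and NR3C1, were listed by name from a table of 22152 genes, and all 10 were found in it. They were chosen with the present contrast in view, since NR2C2 was picked because it was lower with the miR-21-3p mimic. Their levels and differences are therefore a description, and no p-value is given for them. Of the 48 genes of the human nuclear receptor family, 27 were in the table, so 17 further receptors could be set beside the 10, and the other 21 were not analysed here.

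The samples were HaCaT cells, an established line of spontaneously immortalized human keratinocytes, transfected with synthetic miRNA at 1 nM and harvested 48 h later. In 3 samples the transfected miRNA was a miR-21-3p mimic, a double-stranded RNA that stands in for the passenger strand of miR-21, and in the other 3 it was a negative control (NC) mimic. All 6 therefore shared the line, the transfection, the dose and the time. By the labels polyadenylated RNA was sequenced from each, whereas the study's methods name libraries of small RNA. The contrast asks which transcripts differ when miR-21-3p is raised in keratinocytes. HaCaT is a single immortalized line grown in culture, so it has neither the layers of the epidermis nor the other cells of skin.

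Most members of the family bind DNA as pairs, at copies of the hexamer AGGTCA or related words, and recruit coactivators or corepressors. RXR proteins are the shared partner of the retinoic acid, vitamin D and PPAR receptors, while the glucocorticoid receptor is held by HSP90 chaperones until it binds hormone. In epidermis, retinoids, vitamin D and glucocorticoids acting through these receptors influence keratinocyte growth and differentiation.

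The values are normalized counts, that is, reads per gene divided by a size factor of each library. Reads recovered from them and summed over the listed genes came to about 24406408, 24527245 and 26176101 in NC replicates 1 to 3 and to 24804418, 24974095 and 27962619 in mimic replicates 1 to 3. The counting error of NR2C2 was 2.28% of its value, whereas its replicates varied by 4.68% (coefficient of variation). The variation between replicates should include the counting error, but it is estimated from 3 samples per group and is imprecise. As estimated, it was the larger of the 2 for all the listed receptors except NR2C1. For NR2C1 the counting error of 3.58% was larger than the 2.50% between replicates. For PPARD they were close, at 2.69% for counting and 3.38% between replicates.

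The cells carried keratinocyte transcripts at high levels. Of 15 keratinocyte markers 14 were in the table, all 14 passed the filter on low values, and KRT5, the basal keratin, was the most abundant in normalized counts, at 130667 ± 8021 with NC and 133000 ± 7211 with mimic (SD, n = 3). Summed over the 14, the markers gave 403613, 384810 and 403006 with NC and 402621, 415525 and 384452 with mimic. KRT6A, a keratin of activated keratinocytes, rose by 0.34 on the log2 scale (limma, adjusted p = 0.00207, higher in 3 of 3 mimic samples). ITGB4, a hemidesmosome integrin, fell by 0.26 (limma, adjusted p = 0.0385), although its groups overlapped, and it did not pass without NC replicate 1, NC replicate 3, mimic replicate 1 or mimic replicate 3.

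Markers of other cell types were sparse. Of 8 fibroblast markers 1 was in the table, COL1A1, at 560, 390 and 478 with NC and 372, 378 and 364 with mimic, all 3 lower (limma, adjusted p = 0.0641). It passed in 3 of 15 alternatives, by DESeq2 (adjusted p = 0.0274), by edgeR with a replicate block and by limma without NC replicate 2. Its log2 fold change was -0.34 with all samples and -0.22 without NC replicate 1. Of 6 melanocyte markers MITF and PMEL were present, with sums of 631, 630 and 640 against 586, 616 and 585, and MITF was the more abundant. Of 5 endothelial markers VWF and CDH5 were present, with sums of 1197, 1087 and 1119 against 877, 925 and 883. CDH5, an endothelial cadherin, fell by 1.30 on the log2 scale (limma, adjusted p = 0.00262), from 477, 286 and 393 to 165, 178 and 122, whereas VWF, the most abundant of the list, showed a log2 fold change of -0.02 (limma, adjusted p = 0.893). Of 7 immune markers 1 was present, CD14, at 58.7 to 92.2 in the 6 samples. The other markers were not analysed here, and the part of these transcripts in the receptor results was not tested.

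The libraries did not stand equally far apart. On the main axis of variation, which held 54.8% of the variance, NC replicates 1 and 3 lay at -16 and -11 and the mimic replicates at 8.88, 4.93 and 14.3, but NC replicate 2 lay at -1.1, nearest to the mimic libraries. The numbers of genes called overall and in the lists tied to the receptors are therefore also given without NC replicate 2. The labels call the samples biological replicates, and the paper speaks of triplicates and, for its experiments in general, of independent repeats. How these 6 cultures were kept apart is not stated in the sources used here, so the p-values measure the spread between these samples.

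Over 14795 genes tested with limma, 1593 (10.8%) passed an adjusted p of 0.05, 904 of them higher (6.11%) and 689 lower (4.66%) with the mimic. In 4624 genes (31.3%) the groups did not overlap. Without NC replicate 2 the number called was 2966, and without NC replicate 1, NC replicate 3, mimic replicate 1 or mimic replicate 3 it was 544, 179, 276 or 365. The median log2 fold change over all genes tested was 0.00.

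All 10 listed receptors passed the filter on low values. In the fit over all genes, where 10.8% were called, 3 of the 10 were past the same threshold. The count stayed 3 without NC replicate 2 or mimic replicate 2, and was 1 without NC replicate 1, NC replicate 3, mimic replicate 1 or mimic replicate 3. Because the receptors were selected on this contrast, these counts are no test of them and nothing is read from them. The groups of NR2C2, RXRA and NR2F2 did not overlap. These are 3 of the 10, and 31.3% of all genes tested also showed no overlap, so nothing is read from this count either. Since whole cultures were sequenced, fewer cells that express a receptor and less of its RNA per cell cannot be told apart.

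NR2C2, also known as TR4, is an orphan receptor that binds direct repeats of AGGTCA and can activate or repress. It had 2230, 2000 and 2170 normalized counts in NC replicates 1 to 3 and 1760, 1700 and 1640 in mimic replicates 1 to 3. Every mimic sample lay below every NC sample, and the highest mimic value was 12% under the lowest NC value. The means were 2133 ± 119 and 1700 ± 60 (SD, n = 3), a change of -20.3%, and the log2 fold change was -0.33 ± 0.05 (SE). With 1 library left out at a time it ran from -0.37, without NC replicate 2, to -0.29, without NC replicate 1.

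NR2C2 shares exon bases with neighbors on the opposite strand. In the GENCODE v29 annotation 1197 of its exon bases (10.1%) also lie in exons of MRPS25, a mitochondrial ribosomal protein gene, and 155 (1.31%) in exons of FGD5-AS1, a noncoding RNA gene. MRPS25 had 909, 875 and 846 normalized counts with NC and 872, 882 and 1000 with mimic, so its groups overlapped. FGD5-AS1 had 4170, 4020 and 4290 with NC and 3820, 3860 and 3550 with mimic, all 3 lower (limma, adjusted p = 0.0608). The library kit keeps strand, but the strand setting of the counting is not given in the sources used here, so reads from the shared bases cannot be told apart.

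NR2C1, or TR2, is the closest relative of NR2C2 and can pair with it. It had 790, 786 and 805 normalized counts with NC and 742, 790 and 753 with mimic. The groups overlapped, with mimic replicate 2 above NC replicate 2, and the log2 fold change was -0.06 ± 0.06 (SE), so the pair of TR receptors did not differ by the same amount. Whether the difference between these 2 genes exceeds error was not tested.

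RXRA encodes the retinoid X receptor that partners many other members. It had 16400, 14900 and 15500 normalized counts with NC and 13400, 13600 and 12600 with mimic. As for NR2C2, all mimic samples were below all NC samples, here by a gap of 8.72%. The means were 15600 ± 755 and 13200 ± 529 (SD, n = 3), a change of -15.4%, and the log2 fold change was -0.24 ± 0.05 (SE). It was -0.27 without NC replicate 2 and -0.20 without NC replicate 1.

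Because NR2C2 and RXRA were lower together, their promoters are shown, in capitals the matches to GGGCGG, a word of GC-rich promoters bound by SP factors. The sequences are from RefSeq (GRCh38.p14), 300 bases around the annotated start of each gene, 5′ to 3′ on the gene's strand, which is the plus strand for both, at chr3:14947333-14947632 and chr9:134326205-134326504.
NR2C2: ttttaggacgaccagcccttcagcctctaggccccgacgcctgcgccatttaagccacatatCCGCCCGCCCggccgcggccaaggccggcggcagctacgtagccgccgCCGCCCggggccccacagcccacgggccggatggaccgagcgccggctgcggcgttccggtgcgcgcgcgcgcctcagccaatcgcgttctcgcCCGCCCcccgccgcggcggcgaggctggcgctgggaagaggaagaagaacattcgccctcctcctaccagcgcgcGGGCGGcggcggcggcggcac
RXRA: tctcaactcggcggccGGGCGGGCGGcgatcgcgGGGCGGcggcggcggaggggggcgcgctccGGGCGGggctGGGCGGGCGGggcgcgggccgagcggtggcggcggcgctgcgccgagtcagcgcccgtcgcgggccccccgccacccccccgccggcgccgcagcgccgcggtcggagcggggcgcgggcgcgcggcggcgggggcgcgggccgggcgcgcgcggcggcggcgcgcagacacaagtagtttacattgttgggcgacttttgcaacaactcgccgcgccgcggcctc

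The NR2C2 window held 5 matches to GGGCGG on either strand, some of which overlap, and the RXRA window 6. The windows of RARG and NR1D2 held 5 each, PPARD 3, NR3C1 2, and NR2C1 and NR2F2 0. The GC content was 75.3% in the NR2C2 window and 84% in that of RXRA, and from 58.3% (NR2C1) to 72.3% (NR1D2) in the others. Whether the windows of the 2 lower receptors differ from the others was not tested. Promoters were in the table for 8 of the 10 receptors, and 6 of the 8 held the word (75%), against 44.6% of all 27305 promoters of that length. The windows of the 8 had a mean GC content of 68.8% against 57.2% in all promoters. Of the NR2F2 window, which lacks the word, 233 bases lie in coding sequence of NR2F2 in GENCODE v29, and the other 7 windows hold no coding base. Without it, a split made after seeing the data, 6 of 7 held the word (85.7%) and the mean GC content was 69.9%. The hexamer AGGTCA was in none of the 8 and in 13.9% of all. The direct repeat AGGTCANAGGTCA, 2 hexamers spaced by 1 base, was in none of the 8 and in 6 of all 27305, and with up to 2 mismatches, a search chosen after seeing the data, in none of the 8 and 2.99% of all. CACGTG, the E-box of clock factors, was in 2 of the 8, NR2C1 and the partly coding NR2F2 window, and so in 1 of the 7 others, and in 7.43% of all. A match is a description of the letters in this window and not a binding site.

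NR2F2, or COUP-TFII, is an orphan receptor of the same subfamily as NR2C2 that often represses. It had 2800, 3020 and 3010 normalized counts with NC and 3460, 3250 and 3510 with mimic. Here every mimic sample was above every NC sample, by a gap of 7.62%. The means were 2943 ± 124 and 3407 ± 138 (SD, n = 3), a change of 15.7%, and the log2 fold change was 0.21 ± 0.05 (SE). It ran from 0.18, without NC replicate 1, to 0.24, without mimic replicate 2.

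NR2F6, a COUP-TF relative, had 1190, 1020 and 1060 normalized counts with NC and 1100, 1210 and 1130 with mimic. The groups overlapped, with NC replicate 1 above 2 of the mimic samples, and the log2 fold change was 0.08 ± 0.07 (SE), from 0.03 without NC replicate 2 to 0.14 without NC replicate 1. In GENCODE v29, 221 of its exon bases (8.26%) are shared with another annotated gene on the same strand, AC010646.1, so its count depends on how shared reads were assigned.

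**Figure D1:**
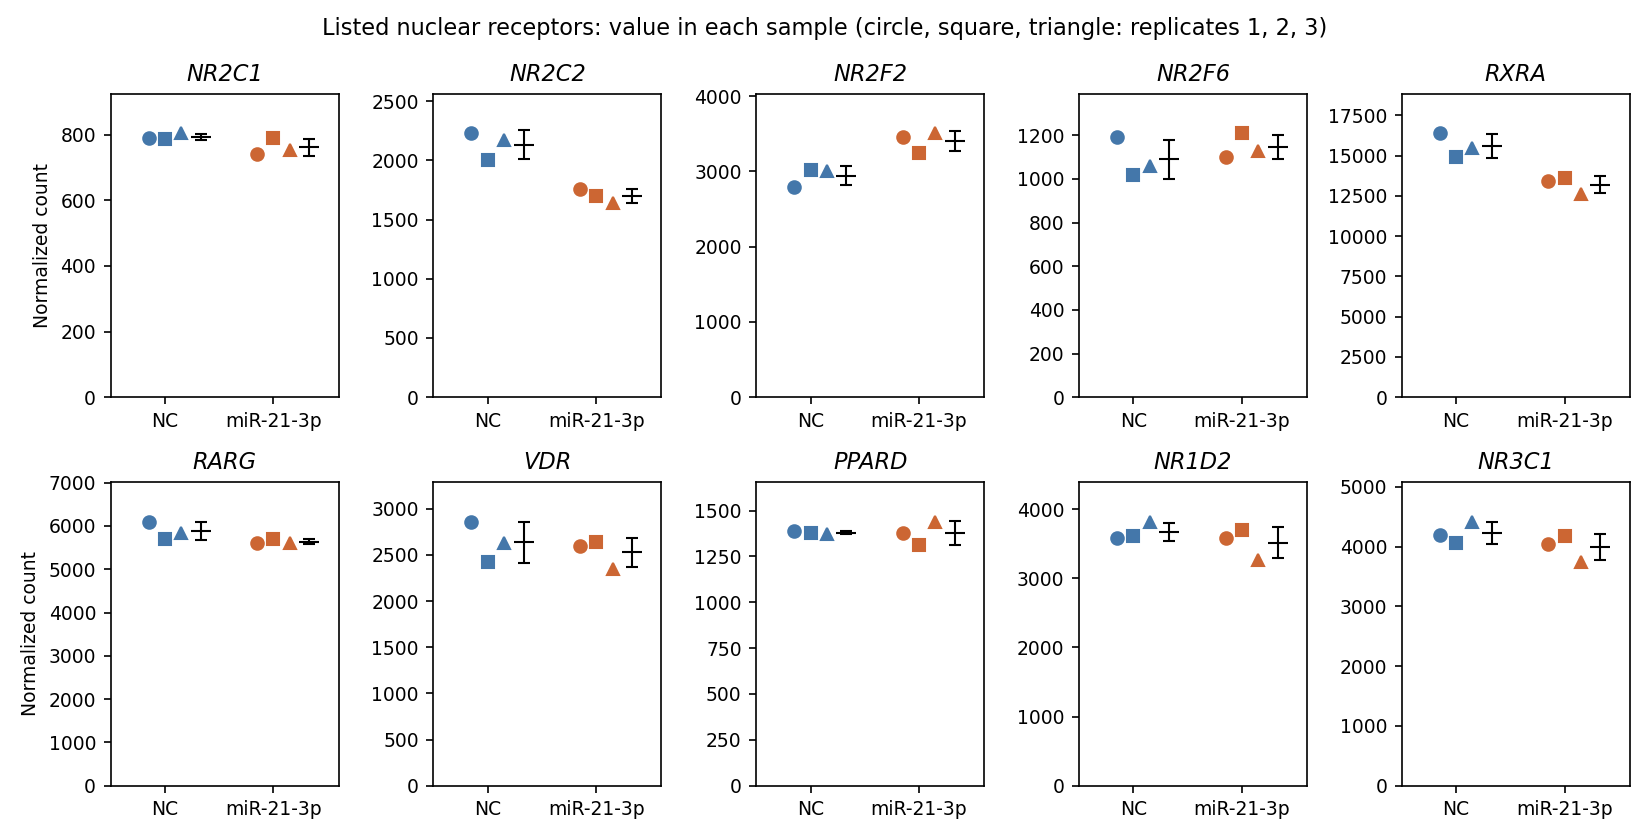
Normalized counts of the 10 listed receptors (vertical axis, from 0) in the 3 NC mimic samples (blue) and 3 miR-21-3p mimic samples (orange), with circle, square and triangle for replicates 1, 2 and 3 and the mean ± SD in black. NR2C2 and RXRA are lower and NR2F2 is higher in all 3 mimic samples, while the other 7 overlap.

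The partners of RXR that sense retinoic acid, vitamin D and fatty acids showed smaller differences. RARG, the main retinoic acid receptor of epidermis, had 6100, 5700 and 5840 normalized counts with NC and 5600, 5700 and 5600 with mimic, a log2 fold change of -0.06 ± 0.04 (SE). VDR, the vitamin D receptor, had 2860, 2420 and 2630 against 2600, 2640 and 2350, a log2 fold change of -0.06 ± 0.06 (SE). PPARD, the fatty acid receptor PPAR delta, had 1390, 1380 and 1370 against 1380, 1310 and 1440, a log2 fold change of 0.00 ± 0.05 (SE). The groups of VDR and PPARD overlapped, and those of RARG touched at 5700. With 1 library left out at a time the log2 fold changes ran from -0.08 to -0.03 for RARG, -0.12 to 0.00 for VDR and -0.04 to 0.03 for PPARD.

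NR1D2, or REV-ERB beta, a heme-sensing repressor of the circadian clock, had 3590, 3610 and 3820 normalized counts with NC and 3580, 3700 and 3270 with mimic. Its log2 fold change was -0.06 ± 0.05 (SE), or -0.01 without mimic replicate 3 and -0.10 without mimic replicate 2, and mimic replicate 3 was the lowest of the 6. NR3C1, the glucocorticoid receptor, had 4200, 4070 and 4420 with NC and 4050, 4180 and 3750 with mimic, a log2 fold change of -0.08 ± 0.05 (SE), or -0.04 without mimic replicate 3. Its mimic replicate 3 was again the lowest, and mimic replicate 2 lay above NC replicate 2.

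**Figure D2:**
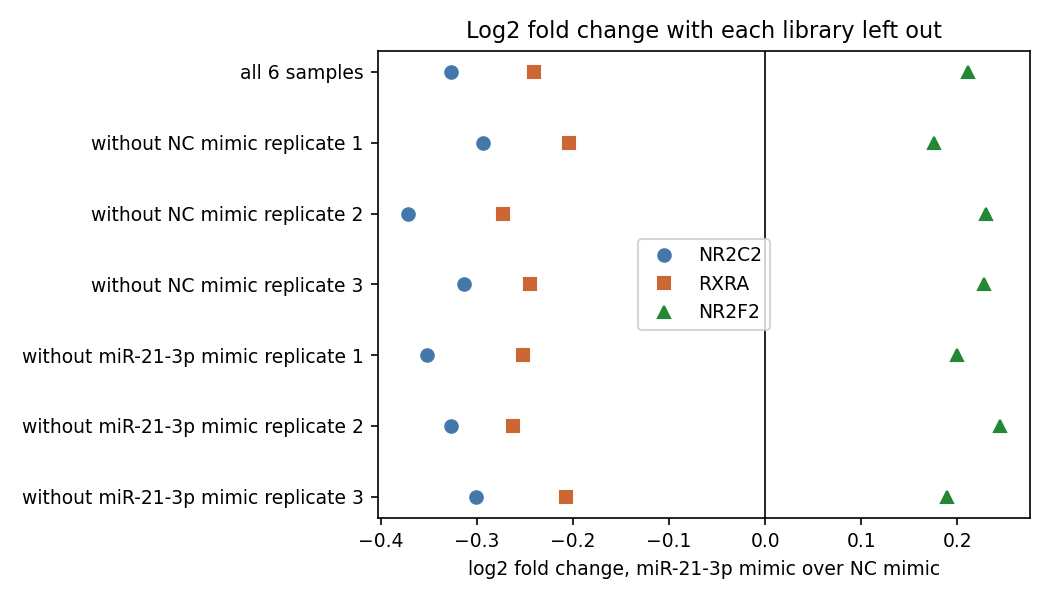
Log2 fold change of NR2C2, RXRA and NR2F2 (horizontal axis, mimic over NC) with all 6 samples and with each library left out in turn (vertical axis). NR2C2 stayed between -0.37 and -0.29, RXRA between -0.27 and -0.20 and NR2F2 between 0.18 and 0.24.

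To set the levels of different genes side by side, each value was divided by the exon length of the gene in GENCODE v29. With NC, RXRA was the most abundant at 1408 ± 68.1 normalized counts per kb (SD, n = 3), then RARG at 1147 ± 39.6 and NR1D2 at 631 ± 21.9. VDR at 465 ± 38.8, NR3C1 at 461 ± 19.3, NR2F2 at 456 ± 19.2 and NR2F6 at 407 ± 33.2 followed, and within these 4 each overlapped the next. PPARD at 310 ± 2.24, NR2C2 at 181 ± 10.1 and NR2C1 at 122 ± 1.53 came last, each apart from its neighbors. With mimic, NR2F2 at 527 ± 21.4 per kb had the fourth-highest mean and NR2C2 was at 144 ± 5.08. The order depends on the exon lengths, which count every annotated transcript.

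**Figure D3:**
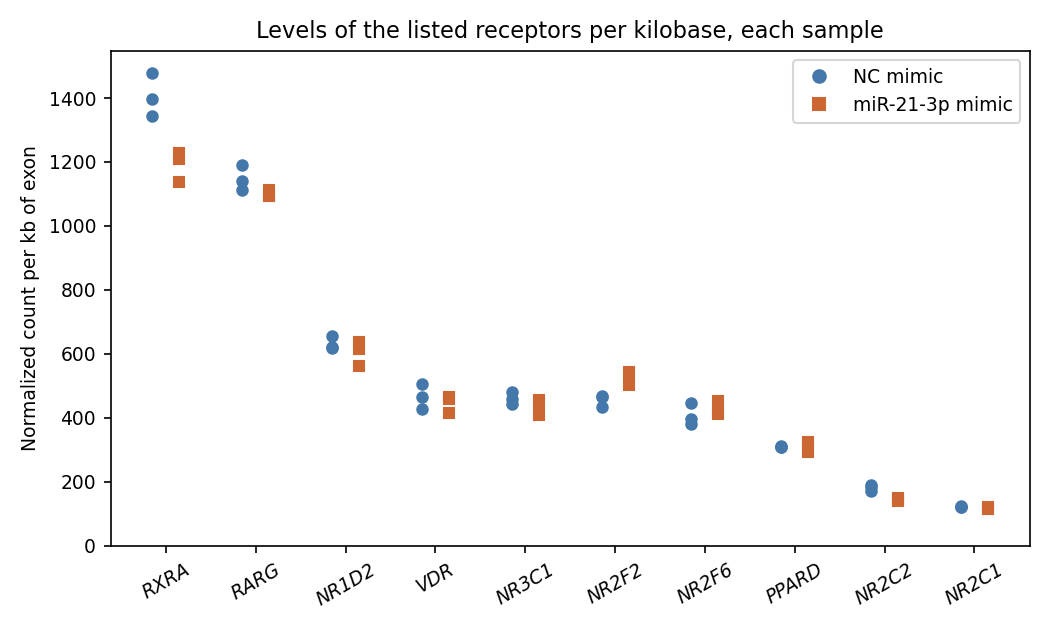
Normalized counts per kb of exon (vertical axis, from 0) of the 10 receptors in each NC mimic sample (blue circles) and miR-21-3p mimic sample (orange squares), ordered by their NC mean. RXRA and RARG lie above 1000 per kb in every sample and NR2C2 and NR2C1 are the lowest.

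Among the genes whose pattern over the 6 samples was most like that of NR2C2, of 12172 with a mean of at least 100 normalized counts, were SSH2, ZNF704, INHA and RASA4B, with Pearson correlations of log2 values from 0.997 to 0.999. SSH2, a cofilin phosphatase, had 2710, 2550 and 2660 normalized counts with NC and 2410, 2380 and 2330 with mimic. ZNF704, a zinc finger protein, had 7070, 6430 and 6930 against 5640, 5570 and 5410. In both, NC replicate 2 was the lowest NC sample and mimic replicate 3 the lowest of all, as for NR2C2. The correlation is over the same 6 libraries that make the contrast, so it holds the group difference and is a description.

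Among the 17 other receptors, all of which passed the filter, 0 rose and 1 fell, with a median log2 fold change of 0.01. The shares over all genes tested were 6.11% higher and 4.66% lower. NR6A1, an orphan receptor known from germ cells, had 1220, 972 and 1000 normalized counts with NC and 892, 851 and 848 with mimic, and fell by 0.29 (limma, adjusted p = 0.0358, lower in 3 of 3 mimic samples), or by 0.19 without NC replicate 1, where it did not pass. ESRRA, an orphan receptor that controls mitochondrial genes, had 3280, 2990 and 3120 against 2810, 2900 and 2760, a log2 fold change of -0.15 (limma, adjusted p = 0.0679). It shares 284 exon bases (9.37%) with TRMT112 on the opposite strand, a gene that rose by 0.29 (limma, adjusted p = 0.0104) and did not pass without NC replicate 3 or mimic replicate 1. PPARA, the fatty acid receptor PPAR alpha, and THRB, a thyroid hormone receptor, had log2 fold changes of -0.15 (limma, adjusted p = 0.140) and -0.13 (limma, adjusted p = 0.102). The count of 1 became 3 without NC replicate 2, with ESRRA and PPARA added, and 0 without any other single library.

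**Figure D4:**
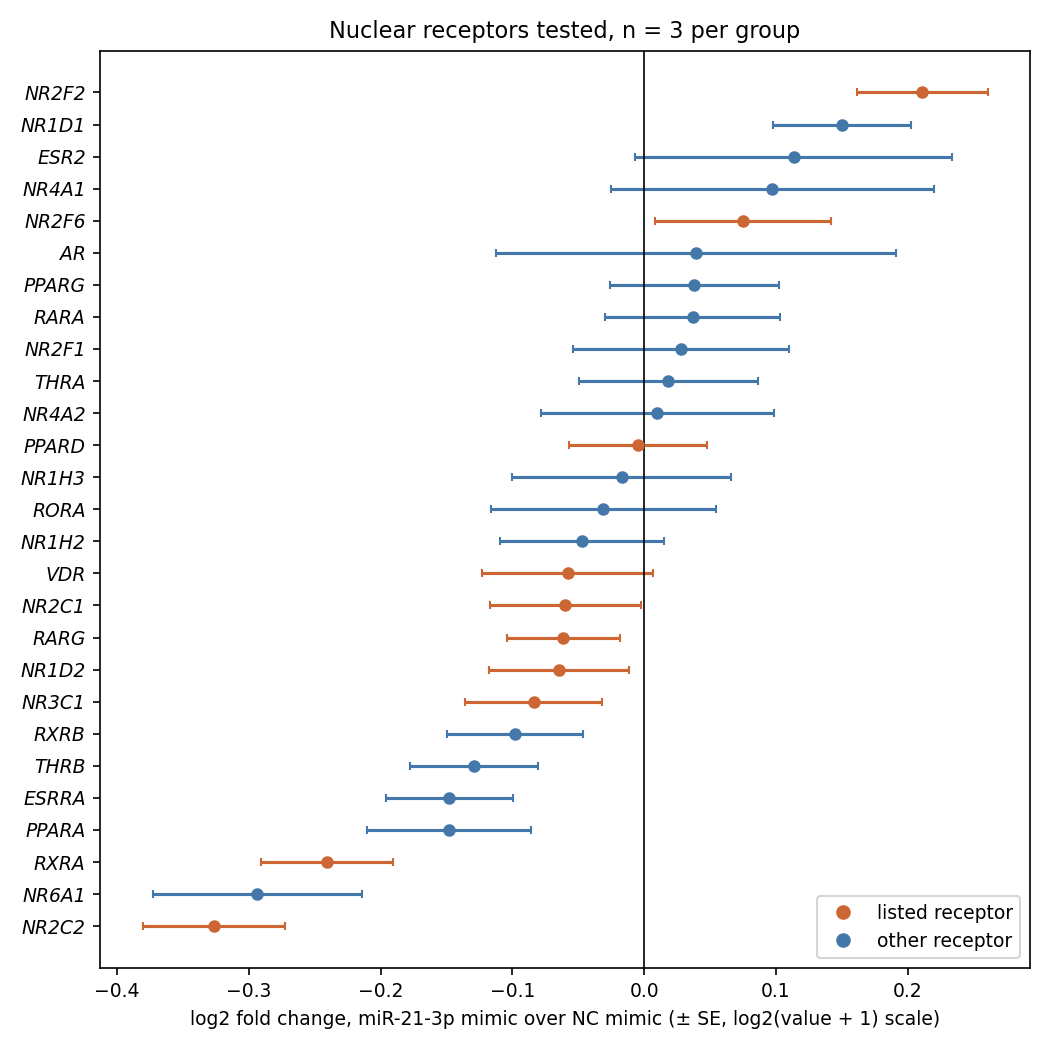
Log2 fold change (horizontal axis, mimic over NC, ± SE, n = 3 per group) of the 27 receptors tested, with the 10 listed receptors in orange and the 17 others in blue. NR2C2, NR6A1 and RXRA lie lowest and NR2F2 highest.

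Coregulators carry the signal from receptor to chromatin. Of 30 listed, 28 were tested, 2 rose, 5 fell and 21 did not pass, with a median log2 fold change of 0.03. Over all genes tested the shares called were 6.11% higher and 4.66% lower. This list and those below were chosen with earlier results of these data known, so their counts and medians are a description and no test. PNRC1, a small coactivator with a proline-rich receptor-binding motif, had 1880, 1690 and 1910 normalized counts with NC and 1380, 1460 and 1310 with mimic, and fell by 0.40 (limma, adjusted p = 0.00490). NCOA3, a p160 coactivator, had 10100, 8940 and 9990 against 7940, 8290 and 7680, and fell by 0.28 (limma, adjusted p = 0.0112). In both genes all mimic samples were below all NC samples, and NC replicate 2 was the NC sample nearest to them.

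Other coregulators past the threshold fell by less or rose. NCOA6, a scaffold of histone methyltransferase complexes, fell by 0.19 (limma, adjusted p = 0.0320) and the acetyltransferase CREBBP by 0.15 (limma, adjusted p = 0.0432), and each passed in 7 of the 15 alternatives. DNMT1, the maintenance DNA methyltransferase that is also found with NR2C1 and NR2C2 in a repressor complex, rose by 0.30 (limma, adjusted p = 0.0315), from 2340, 2840 and 2360 to 3020, 2860 and 3370, with NC replicate 2 close to mimic replicate 2. TRIM24, a coregulator of retinoic acid receptors, rose by 0.20 (limma, adjusted p = 0.0492), but passed in only 3 of the 15 alternatives, and not by DESeq2, without the filter or with any library left out. The most abundant not past it were NCOA4, TBL1XR1 and NCOA7, with log2 fold changes of -0.05, 0.07 and 0.12. The 7 called became 10 without NC replicate 2, and 2, 1, 1 and 2 without NC replicate 1, NC replicate 3, mimic replicate 1 and mimic replicate 3.

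Chaperones fold steroid receptors and hold them ready for ligand. All 8 listed were tested, 5 rose, 0 fell and 3 did not pass, with a median log2 fold change of 0.27 against 0.00 over all genes. Of all genes tested, 6.11% rose and 4.66% fell. The list was chosen with earlier results of these data known, so these values are a description and no test of the list. HSP90AA1, the inducible HSP90, had 17000, 23800 and 19300 normalized counts with NC and 31000, 26300 and 33600 with mimic, and rose by 0.60 (limma, adjusted p = 0.00883). The co-chaperone STIP1 rose by 0.38 (limma, adjusted p = 0.0131), PTGES3, or p23, by 0.30 (limma, adjusted p = 0.00994), HSP90AB1 by 0.25 (limma, adjusted p = 0.0216) and the immunophilin FKBP4 by 0.24 (limma, adjusted p = 0.0178), each higher in 3 of 3 mimic samples.

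HSPA8, the constitutive HSP70, had a log2 fold change of 0.38 (limma, adjusted p = 0.0570), and its groups overlapped, since NC replicate 2 at 10800 was above mimic replicate 2 at 9900. BAG1 and FKBP5 had log2 fold changes of -0.14 and 0.09 and did not pass. Summed over the 8 genes, the samples gave 57221, 71921 and 62107 with NC and 84411, 75737 and 90208 with mimic, so NC replicate 2 was again the NC sample nearest to the mimic group. The 5 called became 6 without NC replicate 2, and 2, 0, 1 and 2 without NC replicate 1, NC replicate 3, mimic replicate 1 and mimic replicate 3.

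Genes that make, carry or respond to retinoic acid, the ligand of RARG, were 17, of which 12 were tested. Of these 0 rose, 3 fell and 9 did not pass. The log2 fold change was above 0 in 3 and below 0 in 9, with a median of -0.29 that includes the genes not past the threshold. This list was also chosen with earlier results of these data known, so its counts and median are a description and no test. All genes tested gave 6.11% higher and 4.66% lower. RDH10, which makes retinaldehyde from retinol, had 2870, 2240 and 2710 normalized counts with NC and 2110, 2070 and 1750 with mimic, and fell by 0.40 (limma, adjusted p = 0.0186). DHRS3, which turns retinaldehyde back to retinol, fell by 0.30 (limma, adjusted p = 0.0209), from 3340, 2820 and 3170 to 2480, 2750 and 2350. RARRES3, a retinoid-induced gene, fell by 0.29 (limma, adjusted p = 0.0367). In RDH10 and DHRS3 NC replicate 2 lay nearest to the mimic samples, with no overlap. ALDH1A3, which makes retinoic acid and was at 25100 to 28800 normalized counts, the binding protein CRABP2 and RDH11 had log2 fold changes of -0.10, 0.10 and 0.19 and did not pass. The 3 called became 5 without NC replicate 2, 1 without NC replicate 1 and 0 without NC replicate 3, mimic replicate 1 or mimic replicate 3.

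For vitamin D, 7 of 10 listed genes were tested, 2 rose and 1 fell, where 6.11% of all genes tested rose and 4.66% fell. Nothing is read from these counts, since the list was chosen with earlier results of these data known. THBD, thrombomodulin, had 3540, 3160 and 3400 normalized counts with NC and 4430, 4500 and 3880 with mimic, and rose by 0.34 (limma, adjusted p = 0.00902). PDIA3, described as a membrane binder of vitamin D, rose by 0.23 (limma, adjusted p = 0.0304), and IGFBP3, a growth factor binding protein, fell by 0.21 (limma, adjusted p = 0.0423). TRPV6, CYP27B1, which makes active vitamin D, and CD14 did not pass, with log2 fold changes of -0.08, 0.29 and 0.16. The median was 0.16 with all samples and -0.01 without NC replicate 2. The 3 called stayed 3 without NC replicate 2 and became 1 without NC replicate 3, 0 without mimic replicate 1 and 1 without mimic replicate 3.

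For the PPARs, 9 of 13 listed genes were tested and 0 were called by limma, edgeR or DESeq2. By limma 10.8% of all genes tested were called. In the list 1 gene had an unadjusted p under 0.05, and the median was -0.04. The fatty acid oxidation genes ACADVL, HADHA and CPT1A had log2 fold changes of -0.04, 0.02 and 0.00. Without NC replicate 2 the count stayed 0, and without mimic replicate 2, 1 gene of the list was called, ANGPTL4, named here after its values were seen.

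For glucocorticoids, 12 of 16 were tested, 2 rose and 0 fell, with a median of -0.04. Since 10.8% of all genes tested were called, and 6.11% of all genes tested were called higher, nothing is read from this count. ANXA1, annexin A1, had 23500, 25500 and 26000 normalized counts with NC and 28800, 30600 and 29200 with mimic, and rose by 0.24 (limma, adjusted p = 0.0165). ERRFI1, an inhibitor of EGFR signaling, rose by 0.33 (limma, adjusted p = 0.0114). TSC22D3, or GILZ, a hormone-induced leucine zipper protein, ranged from 8220 to 12500 with a log2 fold change of -0.19 (limma, adjusted p = 0.256), and MT2A and NFKBIA had 0.00 and -0.09. The 2 called became 3 without NC replicate 2, 1 without NC replicate 1 and 0 without NC replicate 3, mimic replicate 1 or mimic replicate 3.

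NR1D2 works within the circadian clock, of which 19 of 23 listed genes were tested, 1 rose and 2 fell, with a median of -0.03. With 10.8% of all genes tested called, this count is not read as a result about the list. BHLHE41, or DEC2, a repressor of the clock, had 2950, 2600 and 2790 normalized counts with NC and 2260, 2140 and 2020 with mimic, and fell by 0.38 (limma, adjusted p = 0.00499). PER2, a core repressor, fell by 0.30 (limma, adjusted p = 0.0176), and CLOCK, an activator, rose by 0.17 (limma, adjusted p = 0.0275). The kinase CSNK1D and the PAR-bZIP factor TEF were the other abundant genes beside NR1D2, with log2 fold changes of -0.10 and -0.09. The 3 called stayed 3 without NC replicate 2 and became 1 without NC replicate 1, NC replicate 3, mimic replicate 1 or mimic replicate 3, and the gene left in each case was BHLHE41.

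**Figure D5:**
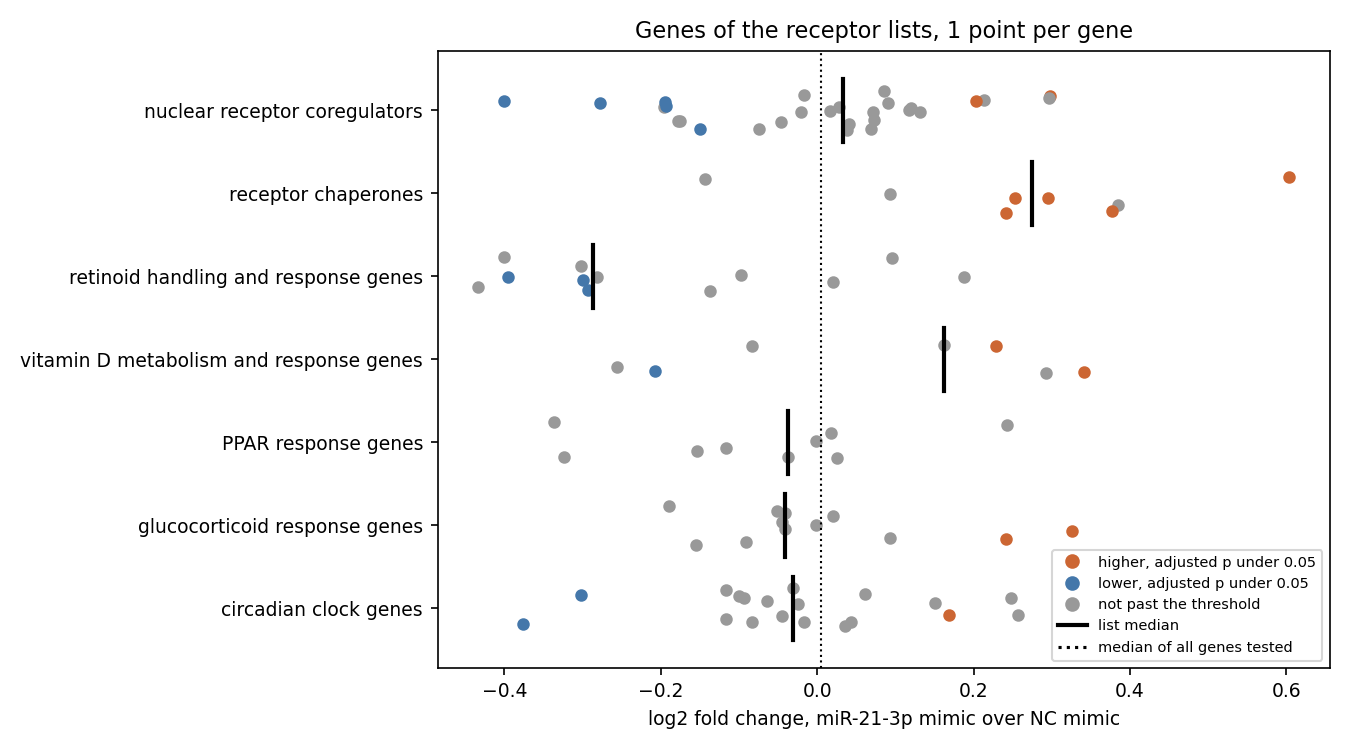
Log2 fold change (horizontal axis, mimic over NC) of each tested gene in 7 lists tied to the receptors, orange where higher and blue where lower past an adjusted p of 0.05, with list medians as bars and the median of all genes tested as a dotted line. The chaperone median lies at 0.27 and the retinoid median at -0.29. The lists were chosen with earlier results of these data known, so the medians are a description.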

How the data were processed

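The deposited table holds a signal per gene, gene counts that the authors divided by size factors, with 3 significant digits. The submitters' processing notes name bcl2fastq 2.18.12, cutadapt 1.15, TopHat2 2.1.1, featureCounts (Subread 1.5.2) and DESeq2, and the genome build is not given in the sources used here. The planned test assumed raw counts, which these are not, so log2(value + 1) was tested with limma 3.58.1 (R 4.3.3, trend on mean level) for genes at 10 or more in at least 3 of 6 samples, with Benjamini-Hochberg adjustment over all genes tested, and fold changes are on that scale. Low values up to 20 reads were whole multiples of a step in each library (100% within 0.1 read), and recovered reads were tested with edgeR 4.0.16 and DESeq2 1.42.0 as alternatives. No pair of replicates agreed within sampling noise. The scripts were tested on simulated data. Members and lists were chosen with earlier results of these data known. The genes named are the 10 receptors, every list gene past adjusted p 0.05, the 3 most abundant of each list not past it, and the 5 most like NR2C2. Some genes that this rule takes are not reported here.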

Additional observations from a re-analysis of the deposited data

How the results depend on the processing

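With pseudocount 0.1, no filter, DESeq2 and edgeR with RLE factors, 1588, 1443, 1588 and 1653 genes were called, against 1593. After seeing the data, edgeR with TMM on recovered reads (1653) and limma after TMM rescaling (1581) were added. At an adjusted p under 0.01, 243 genes were called, with 1 listed receptor, 0 other receptors, 1 coregulator, 2 chaperones, 0 retinoid, 1 vitamin D, 0 glucocorticoid and 1 clock gene. Here and below, the counts of listed receptors are no test of them, since these receptors were selected on this contrast.

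Leaving out 1 library at a time gave 179 to 2966 genes, 1 to 3 listed receptors, 0 to 3 other receptors, 1 to 10 coregulators, 0 to 6 chaperones, 0 to 5 retinoid, 0 to 3 vitamin D, 0 to 1 PPAR, 0 to 3 glucocorticoid and 1 to 3 clock genes. Fewer samples enter these fits, and the cause of the differences between libraries was not tested.

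Apart from the listed receptors, 28 called genes were followed through the 15 alternatives. None changed sign, and in 127 of the 420 values the gene no longer passed. Of 43 other receptor and list genes not called, 30 moved by over 1.5 times with a library left out and 15 of them changed sign. VDR and PPARD changed sign too. The vitamin D median (0.16) became -0.01 without NC replicate 2, the glucocorticoid median (-0.04) 0.01 without NC replicate 3, and that of other receptors (0.01) was negative without 5 of the 6 libraries.

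The replicate numbers did not pair the samples (correlations of deviations -0.08, -0.30 and -0.32 for numbers 1 to 3). With a replicate block edgeR called 1205 genes and limma, added later, 1193, and 3 coregulators in each against 7.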
